A study of Mus musculus with 6 samples.

Results

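The transcripts of 10 enzymes of glycolysis were examined in whole kidney of TfR1KO;KspCre mice and controls. They are the hexokinases Hk1 and Hk2, the phosphofructokinases Pfkl and Pfkp, the regulator Pfkfb3, the aldolase Aldoa, phosphoglycerate kinase Pgk1, phosphoglycerate mutase Pgam1, the enolase Eno2 and lactate dehydrogenase Ldha. The members were the rows with these symbols, 10 of the 24422 genes in the count tables. They were picked by name, with earlier results of these data known. RNA sequencing of poly-A RNA was performed at postnatal day 60 on 6 kidneys of strain C57BL/6, all on an iron-sufficient diet (220 ppm iron). The 3 controls had the genotype wild type, and whether they carried the Cre or the floxed allele was not given for these libraries. For another Cre driver, the study calls TfR1f/f littermates WT. The 3 knockouts had the genotype Tfr1f/f;KspCre, in which exons of Tfrc, the gene of transferrin receptor TfR1, are floxed and Cre is expressed from the Ksp-cadherin promoter. Ksp-cadherin is a protein of the distal nephron, and the study reports cysts in the distal convoluted tubule and in collecting ducts with this driver. The whole kidney also holds cells that are not meant to be targets, and which cells lost Tfrc was not measured here. Each library is described as 1 biological replicate, and the comparison asks how the genotype bears on the transcript of each enzyme.

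Glycolysis splits glucose into pyruvate in the cytosol and makes ATP without oxygen, and lactate dehydrogenase then interconverts pyruvate and lactate. Most steps have isozymes from separate genes that differ between tissues. In the kidney, glycolytic activity is greatest in the distal segments and collecting ducts, whereas proximal tubules burn fatty acids and make glucose. Many glycolytic genes are known targets of the hypoxia-inducible factors (HIF), transcription factors that iron- and oxygen-dependent hydroxylases mark for degradation and that bind DNA elements with the core ACGTG.

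The 250 bases before the annotated starts of the members (RefSeq, GRCm38.p6) were searched for this core, ACGTG, and its reverse complement CACGT, and overlapping matches were counted on each strand, so that the palindrome CACGTG counts as 2 matches. All 10 members matched an entry by symbol, with 15 starts. The core was found before 6 of the 10 genes (60%) and before 18.5% of all 27025 genes with an entry. Of the starts, 8 of 15 (53.3%) had it, beside 16.6% of all 32851. The genes with it were Hk2, Pfkfb3, Aldoa, Pgk1, Pgam1 and Ldha, and it was not found in the windows of Hk1, Pfkl, Pfkp and Eno2. The windows printed here are those of Eno2 and Hk2, the 2 members whose groups did not overlap, and of Pgk1 and the first start of Ldha, which hold repeated copies but belong to genes whose groups overlapped. Each is written 5′ to 3′ on the strand of the gene and ends at the base before the start, and capitals mark the core on either strand.
Eno2 (chr6:124769674-124769923, minus strand): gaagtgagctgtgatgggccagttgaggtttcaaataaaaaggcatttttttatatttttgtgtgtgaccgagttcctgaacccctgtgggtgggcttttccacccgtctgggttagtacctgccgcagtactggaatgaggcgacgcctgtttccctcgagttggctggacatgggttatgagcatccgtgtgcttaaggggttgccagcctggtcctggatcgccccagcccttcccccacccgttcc
Hk2 (chr6:82774455-82774704, minus strand): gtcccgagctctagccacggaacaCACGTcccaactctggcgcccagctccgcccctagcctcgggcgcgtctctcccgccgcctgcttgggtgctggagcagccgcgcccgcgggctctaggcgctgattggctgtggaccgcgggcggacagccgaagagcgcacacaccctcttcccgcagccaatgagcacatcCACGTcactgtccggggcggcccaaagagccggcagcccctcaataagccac
Pgk1 (chrX:106186850-106187099, plus strand): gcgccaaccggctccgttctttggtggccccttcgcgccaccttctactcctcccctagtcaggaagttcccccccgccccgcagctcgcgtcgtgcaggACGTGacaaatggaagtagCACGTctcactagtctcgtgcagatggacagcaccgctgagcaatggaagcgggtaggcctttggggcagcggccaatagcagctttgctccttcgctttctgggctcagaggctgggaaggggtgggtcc
Ldha (chr7:46845554-46845803, plus strand): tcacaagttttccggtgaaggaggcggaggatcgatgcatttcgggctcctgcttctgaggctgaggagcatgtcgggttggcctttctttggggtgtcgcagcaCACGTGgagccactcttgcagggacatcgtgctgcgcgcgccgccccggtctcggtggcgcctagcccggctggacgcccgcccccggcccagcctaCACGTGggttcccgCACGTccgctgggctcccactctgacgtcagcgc

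Hk2 and Pgk1 have 2 matches each in these windows and Ldha has 5, of which 4 come from 2 palindromes, and the 0 matches of Eno2 say only that these letters are not in its window. The match is a description of letters, and no binding was measured.

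Library totals were 11501053 to 21001341 counts, the smallest in knockout 3, where the ribosomal RNA gene Rn45s held 2.59% of counts (0.506% to 0.745% elsewhere). All values below are CPM, counts per 1000000 counts of the library after TMM scaling, and each change is a log2 fold change of knockout against control from edgeR's quasi-likelihood test, with p-values adjusted by Benjamini-Hochberg over 15171 genes tested. The targeted gene Tfrc was measured at 138, 168 and 62.0 CPM in controls 1, 2 and 3 and at 214, 86.0 and 40.6 CPM in knockouts 1, 2 and 3. The groups overlapped and the library labelled knockout 1 was the highest, so that Tfrc did not separate the labels in whole kidney (log2 fold change -0.11; edgeR, adjusted p = 0.911). The names control and knockout therefore follow the labels. Control 2 stood apart in the genes Xist (52 counts, against 10458 to 23845 in the other libraries) and the Y-linked Ddx3y (1451 counts, against 1 to 4). The Y-linked Eif2s3y, Kdm5d and Uty held 1317, 518 and 694 counts in control 2 and 0 to 2 in the others. This is the pattern of a male kidney and that of the others of female ones, so the groups were not balanced in sex. Over all genes 2612 (17.2%) were called at an adjusted p under 0.05, 1604 higher (10.6%) and 1008 lower (6.64%). In these bulk samples, fewer cells of a type and less RNA per cell cannot be told apart. The p-values measure the spread between these kidneys.

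Of the 10 glycolytic members, all of which passed the filter on low counts, 1 was called higher (10.6% of all genes were) and 0 lower (6.64% of all genes were). The member called was Eno2. At an unadjusted p under 0.05 the count was 2, Eno2 and Hk2, both higher, and DESeq2's Wald test called these 2 (and 28.5% of all genes). The median log2 fold change of the members was -0.049 and that of all tested genes was 0.021. The libraries of the 2 groups did not overlap in 2 members, Eno2 and Hk2, beside 46% of all genes.

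Levels per kilobase of transcript, which allow genes to be compared, spanned a wide range in the control kidneys. Aldoa was the highest at 728 ± 70.9 CPM per kilobase (mean ± SD, n = 3), followed by Pgk1 (445 ± 1.85), Ldha (376 ± 49.9) and Pgam1 (243 ± 1.66). Hk1 (61.5 ± 23.5), Pfkl (37.0 ± 10.4) and Pfkp (26.2 ± 8.84) formed a middle tier, in which the control values of each neighbouring pair overlapped. Pfkfb3 was at 13.3 ± 4.35, Hk2 at 1.59 ± 1.01 and Eno2 at 0.975 ± 0.332 CPM per kilobase, and the last 2 overlapped. In the knockouts Aldoa was again first (659.6 ± 235 CPM per kilobase), the ranges of Pgk1 (289 ± 165) and Ldha (330.2 ± 130.0) overlapped, and Eno2 (4.66 ± 1.29) and Hk2 (3.96 ± 1.06) overlapped at the low end. Pgk1 and Pgam1 are uncertain, because 89.8% and 87.1% of the 100-base stretches of their transcripts also occur elsewhere in the mm9 genome and the authors kept uniquely mapped reads. The share was 1.32% for Ldha and 0 for the other 7 members.

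The hexokinases phosphorylate glucose, the first step of its use by the cell. Hk1 (chromosome 10, 61731603 to 61842656, minus strand, mm9), the isozyme of most tissues, was measured at 368, 256 and 167 CPM in controls 1, 2 and 3 and at 316, 146 and 198 CPM in knockouts 1, 2 and 3. The controls alone spanned a wider range than the distance between the group means, and the log2 fold change was -0.26 ± 0.38 (SE, edgeR's adjusted p = 0.639). Hk2 (chromosome 6, 82675019 to 82724448, minus strand), an isozyme that is abundant in muscle and induced in growing cells, was measured at 15.2, 5.70 and 5.40 CPM in controls 1, 2 and 3 and at 21.4, 27.9 and 16.2 CPM in knockouts 1, 2 and 3. All knockouts lay above all controls, although control 1 (15.2 CPM) was close to knockout 3 (16.2 CPM). Hk2 averaged 8.78 ± 5.59 CPM in control and 21.8 ± 5.82 CPM in knockout kidneys (means ± SD, n = 3), and its log2 fold change was 1.31 ± 0.45 (SE, edgeR's adjusted p = 0.0794) with a 95% interval of 0.25 to 2.37. Hk2 was therefore not called, and its adjusted p ranged from 0.0253 with DESeq2's Wald test to 0.208 without control 2. Overlapping genes on the opposite strand (2210417K05Rik at Hk1 and Gm17034 at Hk2) cannot be separated where counting ignored strand.

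Phosphofructokinase adds the next phosphate and sets the pace of the pathway. Pfkl (chromosome 10, 77449692 to 77472828, minus strand), the liver-type subunit, was measured at 181, 127 and 106 CPM in controls 1, 2 and 3 and at 224, 112 and 90.6 CPM in knockouts 1, 2 and 3. Knockout 1 was the highest library and knockout 3 the lowest, and the log2 fold change was 0.045 ± 0.37 (SE, edgeR's adjusted p = 0.94). Pfkp (chromosome 13, 6579014 to 6648023, minus strand), the platelet-type subunit, overlaps Pitrm1 on the other strand and was measured at 148, 100.5 and 76.5 CPM in controls 1, 2 and 3 and at 194, 113 and 124 CPM in knockouts 1, 2 and 3. The 3 knockouts lay within or above the control range of Pfkp, with a log2 fold change of 0.40 ± 0.31 (SE, edgeR's adjusted p = 0.361) and a 95% interval of -0.32 to 1.13.

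Pfkfb3 (chromosome 2, 11393057 to 11423728, minus strand) makes the sugar bisphosphate that activates phosphofructokinase. It was measured at 92.8, 58.8 and 51.4 CPM in controls 1, 2 and 3 and at 94.5, 84.8 and 81.4 CPM in knockouts 1, 2 and 3. Control 1 lay among the knockouts and the other controls below them, with a log2 fold change of 0.36 ± 0.23 (SE, edgeR's adjusted p = 0.289). In Hk1, Hk2, Pfkl, Pfkp and Pfkfb3 alike, control 1 was the highest control and control 3 the lowest. The sums of the endothelium, fibroblast, red cell, muscle and thick ascending limb markers had the same order among the controls. The red cell sum was mostly Slc4a1 (123.5 of 139.8 CPM in control 1), also listed for the collecting duct, with 4 genes at 0 in all libraries. The muscle sum was mostly Des (29.2 of 29.7 CPM in control 1). Single markers did not all share the order: Acta2 and Tagln were highest in control 3, and Umod and Kdr in control 2. Over 7 markers of the thick ascending limb the sum was 11999.8, 11768 and 5492 CPM in controls 1, 2 and 3, beside 7067, 947 and 1264 CPM in knockouts 1, 2 and 3, and over 5 of the endothelium it was 588, 526 and 319 CPM in controls 1, 2 and 3, beside 677, 586 and 634 CPM in knockouts 1, 2 and 3. The part of these cells in the values was not tested.

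Aldolase cleaves the hexose into a pair of trioses. Aldoa (chromosome 7, 133938748 to 133944265, minus strand) encodes the muscle-type isozyme that most cells use, and it was measured at 1138, 1014 and 1233 CPM in controls 1, 2 and 3 and at 1437, 753 and 876 CPM in knockouts 1, 2 and 3. Knockout 1 was above and knockouts 2 and 3 were below all controls, and the log2 fold change was -0.14 ± 0.30 (SE, edgeR's adjusted p = 0.754). Pgk1 (chromosome X, 103382439 to 103399038, plus strand) encodes the enzyme of the first ATP-yielding step, and it was measured at 809, 812 and 816 CPM in controls 1, 2 and 3 and at 867, 433 and 286 CPM in knockouts 1, 2 and 3. The controls of Pgk1 were nearly equal, with a coefficient of variation of 0.416%, whereas that of the knockouts was 57.2%. The log2 fold change was -0.62 ± 0.40 (SE, edgeR's adjusted p = 0.288).

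Pgam1 (chromosome 19, 41986361 to 41993154, plus strand) encodes the enzyme that shifts the phosphate of phosphoglycerate, and it was measured at 448, 443 and 442 CPM in controls 1, 2 and 3 and at 498, 258 and 215 CPM in knockouts 1, 2 and 3. It had the same pattern as Pgk1, with coefficients of variation of 0.686% in controls and 47.2% in knockouts and a log2 fold change of -0.46 ± 0.33 (SE, edgeR's adjusted p = 0.332). In both genes knockout 1 lay above all controls and knockouts 2 and 3 below all of them.

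Enolase forms phosphoenolpyruvate, and Eno2 (chromosome 6, 124710071 to 124719691, minus strand) encodes the gamma subunit that is known from neurons and neuroendocrine cells. Eno2 held 41, 40 and 63 counts in controls 1, 2 and 3 and 187, 271 and 213 counts in knockouts 1, 2 and 3. Scaled, it was at 2.04, 2.35 and 3.78 CPM in controls 1, 2 and 3 and at 9.18, 13.6 and 16.3 CPM in knockouts 1, 2 and 3. Every knockout was above every control, and knockout 3, the smallest library, was the highest. Eno2 rose from 2.72 ± 0.929 to 13.0 ± 3.60 CPM (means ± SD, n = 3), and its log2 fold change was 2.26 ± 0.35 (SE, edgeR's adjusted p = 0.0277), or 4.78-fold, with a 95% interval of 1.42 to 3.09 (log2). Its direction held in 16 of 16 alternatives with log2 fold changes of 2.06 to 2.56, and the highest adjusted p was 0.118, without control 2. When control 1, 2 or 3 or knockout 2 or 3 was left out, Eno2 was not called (edgeR's adjusted p = 0.0569 to 0.118), and the same 5 fits called 0 to 73 genes in all, with 4270 to 4823 at an unadjusted p under 0.05. The replicate block (edgeR's adjusted p = 0.0713) and the Xist-to-Y covariate (edgeR's adjusted p = 0.111) also ended the call, so that Eno2 was called in 9 of 16 alternatives.

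The summed fibroblast and leukocyte markers were also higher in every knockout than in every control, and the groups did not overlap in 6 of the 8 single fibroblast markers and 11 of the 12 leukocyte markers, the knockouts being above (23.8% of all genes). The defining neuron markers Snap25, Syt1 and Rbfox3 held 0 to 10 counts in each library and did not pass the filter. The other 2 neuron markers, Tubb3 (log2 fold change 1.69 ± 0.79 SE, edgeR's adjusted p = 0.162) and Nefl (1.04 ± 0.92 SE, adjusted p = 0.435), were not called, although Tubb3, at 0 to 6 counts in the controls and 11 to 13 in the knockouts, was above all controls in all knockouts. The sum over 5 neuron markers was 1.34, 1.18 and 1.86 CPM in controls 1, 2 and 3, beside 3.88, 1.41 and 3.06 CPM in knockouts 1, 2 and 3. The 8 fibroblast markers summed to 625, 419 and 380.4 CPM in controls 1, 2 and 3, beside 1082, 4247 and 4712 CPM in knockouts 1, 2 and 3, and the 12 leukocyte markers summed to 187, 173 and 190.4 CPM in controls 1, 2 and 3, beside 463, 1664 and 629 CPM in knockouts 1, 2 and 3. Knockout 2 was the highest of the knockouts in Hk2, in the leukocyte sum, in the sum of 6 injured tubule markers (7336, 7671 and 4157 CPM in knockouts 1, 2 and 3, beside 1795, 1054 and 3054 CPM in controls 1, 2 and 3) and in that of 7 cycling cell markers (54.4, 78.3 and 65.1 CPM in knockouts 1, 2 and 3, beside 9.20, 15.4 and 29.1 CPM in controls 1, 2 and 3). Most of the injured tubule sum was Spp1 (6986, 7051 and 3598 CPM in knockouts 1, 2 and 3). Singly, Havcr1 was highest in knockout 1, and Lcn2 and Sox9 in knockout 3. Of the cycling cell markers, Birc5, Aurka and Plk1 were highest in knockout 3, and the rest in knockout 2. The part of neurons, fibroblasts, leukocytes, injured tubules and cycling cells in these values was not tested.

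Lactate dehydrogenase A, encoded by Ldha (chromosome 7, 54096845 to 54110997, plus strand), is the subunit that favours the formation of lactate. It was measured at 636, 762 and 592 CPM in controls 1, 2 and 3 and at 846, 483 and 420.3 CPM in knockouts 1, 2 and 3. As with Aldoa, knockout 1 was above all controls and knockouts 2 and 3 were below them, and the log2 fold change was -0.19 ± 0.31 (SE, edgeR's adjusted p = 0.682).

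**Figure D1:**
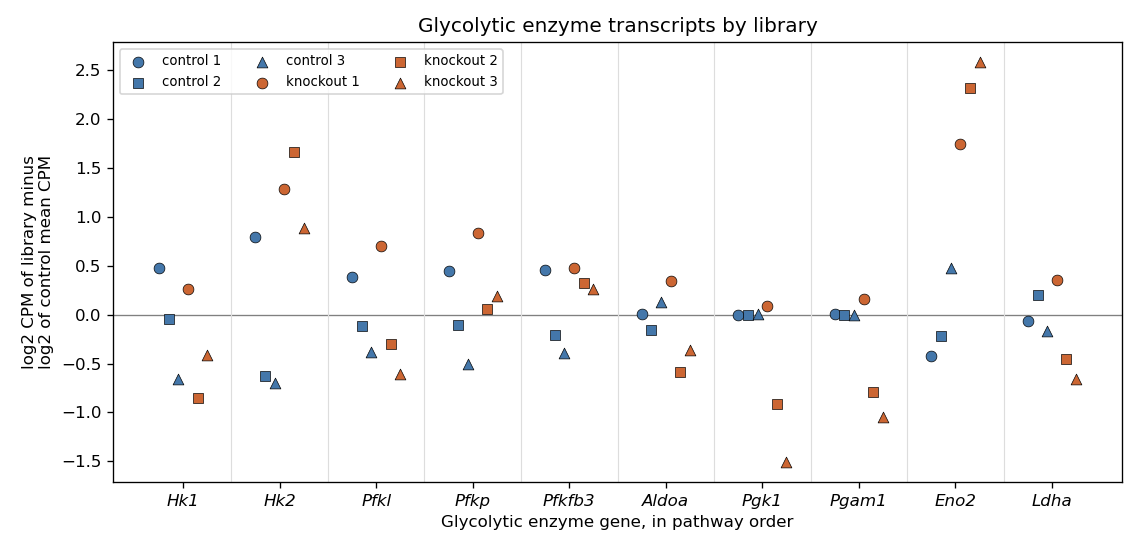
Level of each of the 10 glycolytic enzymes in each library, as log2 of CPM minus log2 of the control mean CPM, with controls in blue and TfR1KO;KspCre libraries in orange and one marker shape per replicate number (which pairs no samples). Knockout 1 (orange circles) lies above 0 for 10 of 10 genes, whereas knockouts 2 and 3 lie above it for 4 of 10, and only Hk2 and Eno2 have all 3 knockouts above all 3 controls.

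In the plot of levels by library, knockout 1 was above the control mean in 10 of 10 members and above every control in 9, with 0 below every control. Over all genes tested, knockout 1 was above every control in 33.9% and below every control in 30.4%. Knockouts 2 and 3 were each above every control in 2 members and below every control in 5, and over all genes above in 39.9% and 41.0% and below in 38.8% and 39.3%. With scaling by library size alone, these counts were 9 and 0 for knockout 1, 3 and 4 for knockout 2, and 3 and 3 for knockout 3, and the shares over all genes were 50.7% above and 16.3% below for knockout 1, 56.1% and 24.6% for knockout 2, and 57.3% and 24.6% for knockout 3. Summed over the 10 members, the level was 3837, 3580.5 and 3493 CPM in controls 1, 2 and 3, beside 4506, 2423 and 2322 CPM in knockouts 1, 2 and 3, highest of all 6 libraries in knockout 1.

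Leaving out the library labelled knockout 1 moved several values. Without it, 3 members were called, 1 higher (18% of all genes) and 2 lower (16.4% of all genes), and the members' median log2 fold change was -0.47 (all genes 0.02). Eno2 rose by 2.45 ± 0.33 (SE, edgeR's adjusted p = 0.00429), whereas Pgk1 fell with a log2 fold change of -1.19 ± 0.23 (SE, edgeR's adjusted p = 0.0109) and Pgam1 with one of -0.92 ± 0.16 (SE, edgeR's adjusted p = 0.00849). Ldha at -0.56 ± 0.19 (SE, edgeR's adjusted p = 0.0638), Aldoa at -0.48 ± 0.19 (SE, edgeR's adjusted p = 0.0981), Hk2 at 1.32 ± 0.51 (SE, edgeR's adjusted p = 0.0936) and Pfkl at -0.45 ± 0.26 (SE, edgeR's adjusted p = 0.213) were not called. Over all genes 34.4% were called in this fit, against 17.2% with all 6 libraries. In the marker sums, knockout 1 lay between the controls and the other knockouts for the proximal tubule (12327, 17096 and 15222 CPM in controls 1, 2 and 3, beside 7170.1, 2711 and 2337 CPM in knockouts 1, 2 and 3) and for the fibroblasts and leukocytes given above, but within the range of the controls for the thick ascending limb and the distal convoluted tubule (2597.5 to 3864 CPM in controls, beside 2900 CPM in knockout 1). The 8 collecting duct markers summed to 1356, 1003 and 1082 CPM in controls 1, 2 and 3, beside 1602, 856 and 587 CPM in knockouts 1, 2 and 3. In this sum knockout 1 was above all controls and knockouts 2 and 3 below them, but of its single genes only Aqp3 had this pattern. Aqp2, the largest part of the sum, was at 873, 516 and 56.1 CPM in knockouts 1, 2 and 3. Its controls were at 405 to 741 CPM, so that knockout 2 was within their range. Slc4a1 was below all controls in all knockouts, and Foxi1 and Atp6v1g3 were above all controls in knockout 3. The part of the cell types named in these marker sums in the members' values was not tested.

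Of the 20 other genes of glycolysis, 18 were tested, and 3 were called higher (10.6% of all genes) and 2 lower (6.64%), of which 4 are described. Hk3, a hexokinase of blood cells, rose from 0.597 ± 0.423 to 4.20 ± 2.34 CPM (means ± SD, n = 3), and its log2 fold change was 2.82 ± 0.65 (SE, edgeR's adjusted p = 0.0366). It was measured at 0.299, 0.411 and 1.08 CPM in controls 1, 2 and 3 and at 2.01, 6.67 and 3.91 CPM in knockouts 1, 2 and 3, highest in knockout 2. The leukocyte, injured tubule and cycling cell sums were also highest in knockout 2, though not every injured tubule or cycling cell marker was. The part of these cells in the value of Hk3 was not tested. Hkdc1, a gene related to the hexokinases, rose from 3.26 ± 0.232 to 7.12 ± 1.64 CPM, with a log2 fold change of 1.12 ± 0.27 (SE, edgeR's adjusted p = 0.0397).

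Pfkfb4, a relative of Pfkfb3, rose from 12.4 ± 2.48 to 21.1 ± 2.40 CPM (log2 fold change 0.77 ± 0.21 SE, edgeR's adjusted p = 0.049). Pklr, the pyruvate kinase of liver and red cells, fell from 43.9 ± 11.1 to 24.3 ± 4.69 CPM (log2 fold change -0.85 ± 0.23 SE, edgeR's adjusted p = 0.047). The summed proximal tubule markers given above were likewise lower in all knockouts than in all controls, and their part in the value of Pklr was not tested. None of Hk3, Hkdc1, Pfkfb4 and Pklr was called in the 5 fits without control 1, 2 or 3 or knockout 2 or 3, with the replicate block or with the Xist-to-Y covariate. Pfkfb4 was also not called with DESeq2 size factors (edgeR's adjusted p = 0.0536), without a filter (edgeR's adjusted p = 0.0548) and with limma-voom (adjusted p = 0.0511), and Pklr with upper quartile scaling (edgeR's adjusted p = 0.0584), library size alone (edgeR's adjusted p = 0.0914) and limma-voom (adjusted p = 0.0566). The groups did not overlap in these 4 genes, nor in Pgam2, Ldhb and Pfkfb2, which were not called. Over the 18 genes tested, 3 did not overlap on the higher side and 5 on the lower, beside 46% of all genes on either side.

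Other tested genes were Gpi1 (0.18), Pfkm (-0.47), Aldoc (-1.004), Tpi1 (-0.55), Gapdh (-0.56), Pgam2 (-1.45), Bpgm (-0.37), Eno3 (0.10), Pkm (0.26), Ldhb (-0.65), Pfkfb1 (0.058), Pfkfb2 (-0.28) and Tigar (0.11), given as log2 fold changes with adjusted p-values in edgeR of 0.0924 to 0.916. Eno1 (0 to 6 counts) did not pass the filter. Without knockout 1, 3 were called higher (18% of all genes) and 8 lower (16.4%). The added calls were Pfkm, Aldoc, Tpi1, Gapdh, Pgam2 and Ldhb, at log2 fold changes of -0.81, -2.13, -0.97, -0.94, -1.93 and -0.98. As with Pgk1 and Pgam1, 85.1% of the 100-base stretches of Gapdh occur elsewhere in the genome, so its count is uncertain. The plot of fold changes sets both fits side by side.

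**Figure D2:**
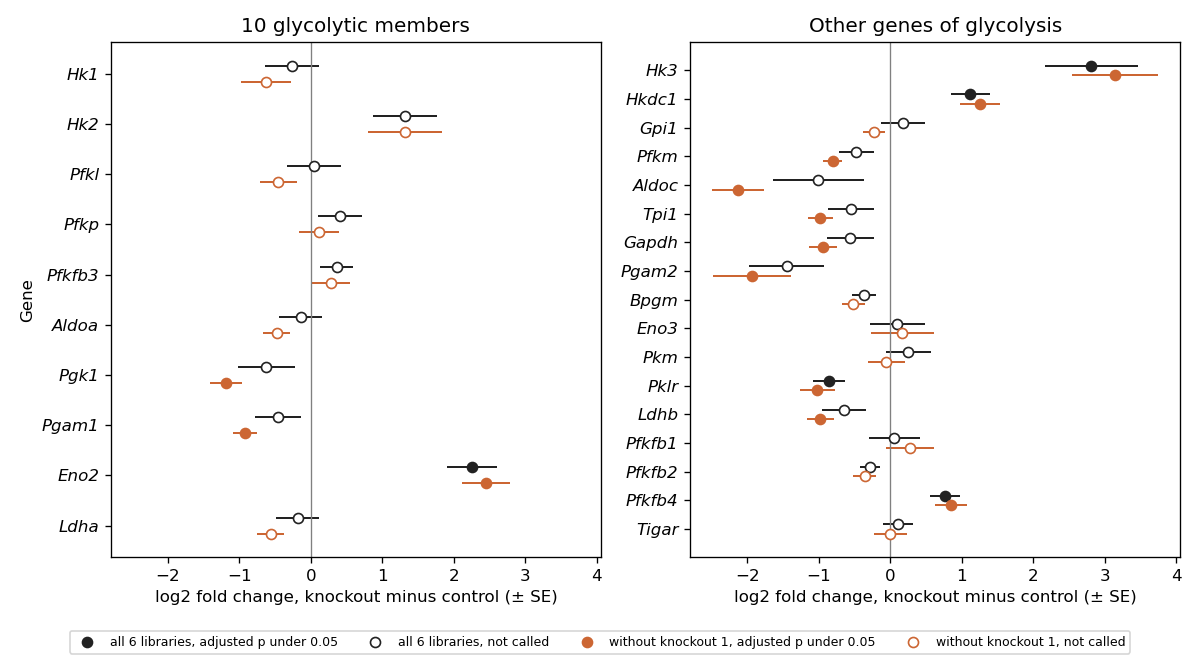
Log2 fold change of knockout against control (± SE) for the 10 members (left) and 17 of the 18 other glycolysis genes tested (right), with all 6 libraries in black and without knockout 1 in orange, filled where the adjusted p was under 0.05. With all libraries 1 member (Eno2) and 4 other genes (Hk3, Hkdc1, Pfkfb4 and Pklr) are filled, and without knockout 1 the members filled are 3, with Pgk1 and Pgam1 newly filled on the lower side.

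The ratio of isozymes within a library does not depend on how libraries are scaled. It was computed from counts for 6 pairs, of which 5 are given, each tested by a two-sided exact permutation test, in which 3 libraries against 3 can give no p below 0.1. All 5 reached 0.1 (0.1 after Benjamini-Hochberg adjustment over the 6), with groups that did not overlap. Of single genes 46% did not overlap, and no such share was computed for ratios of gene pairs. Hk2, Pklr, Ldhb and Pfkfb2, each part of a ratio, did not overlap on their own.

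For the hexokinases, the log2 ratio of Hk1 over Hk2 was 4.59, 5.49 and 4.95 in controls 1, 2 and 3, beside 3.89, 2.39 and 3.60 in knockouts 1, 2 and 3, a difference of -1.72. Of hexokinase transcripts per kilobase, Hk1 made up 95.5% ± 0.923 in control and 86.1% ± 6.76 in knockout kidneys, and Hk2 2.37% ± 0.706 in control and 7.37% ± 3.77 in knockout kidneys. Hk1 thus remained the main hexokinase in every library. Knockout 2 had the lowest ratio and control 2 the highest.

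For the phosphofructokinases, the log2 ratio of Pfkp over Pfkl was -0.28, -0.34 and -0.47 in controls 1, 2 and 3, beside -0.21, 0.014 and 0.45 in knockouts 1, 2 and 3, a difference of 0.45. Of phosphofructokinase transcripts per kilobase, Pfkp made up 26.7% ± 3.58 in control and 36.6% ± 3.44 in knockout kidneys, Pfkl 38.0% ± 2.76 in control and 38.5% ± 5.26 in knockout kidneys, and the muscle-type Pfkm 35.2% ± 6.34 in control and 24.9% ± 1.95 in knockout kidneys. The log2 ratio of Pfkfb3 over Pfkfb2 was 0.63, -0.074 and -0.50 in controls 1, 2 and 3, beside 0.70, 0.63 and 0.79 in knockouts 1, 2 and 3, a difference of 0.69. Control 1 lay next to the lowest knockout in this ratio.

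The log2 ratio of Ldha over Ldhb was -1.27, -1.07 and -1.59 in controls 1, 2 and 3, beside -0.79, -0.78 and -1.005 in knockouts 1, 2 and 3, a difference of 0.45, and the share of Ldha in both per kilobase was 23.1% ± 3.21 in control and 29.0% ± 1.79 in knockout kidneys. For pyruvate kinase, the log2 ratio of Pkm over Pklr was 4.28, 3.86 and 3.16 in controls 1, 2 and 3, beside 5.07, 4.81 and 4.64 in knockouts 1, 2 and 3, a difference of 1.07, and Pkm held 92.1% to 97.8% of both in every library. The plot of isozyme ratios shows the 5 pairs, which kept their direction without each library in turn. A ratio of Eno2 over Eno1 could not be formed at the 0 to 6 counts of Eno1.

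**Figure D3:**
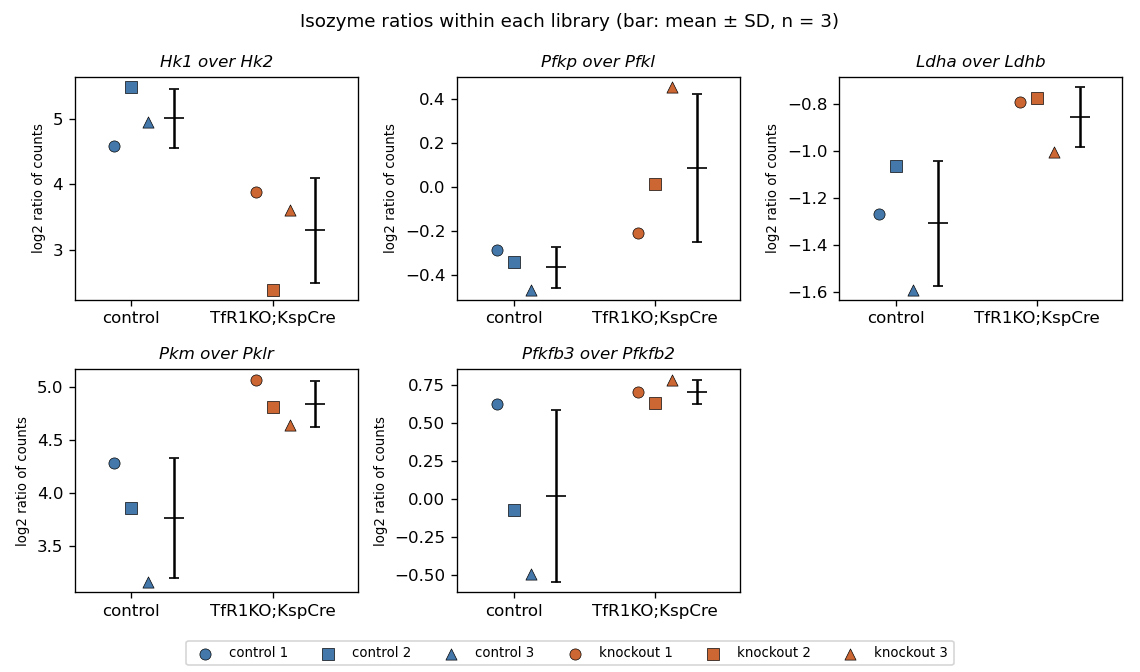
Log2 ratio of the counts of 2 isozymes within each library for 5 pairs, with controls in blue, TfR1KO;KspCre libraries in orange, and black bars for the mean ± SD of each group (n = 3), each panel on its own axis. In every panel the groups do not overlap, and the knockouts lie below the controls for Hk1 over Hk2 (difference -1.72) and above them for the other 4 pairs (differences 0.45 to 1.07).

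Genes at the borders of glycolysis were followed as lists. Among all genes tested, 6.64% were called lower and 10.6% higher. Of 6 glucose transporters, 3 fell: Slc5a2 (log2 fold change -2.38 ± 0.34 SE, edgeR's adjusted p = 0.0271) and Slc5a1 (-1.19), which reabsorb glucose from the tubular fluid, and Slc2a2 (-2.01), which releases it to the blood side. Slc2a3, known from neurons and leukocytes, had a log2 fold change of 1.61 ± 0.46 (SE, edgeR's adjusted p = 0.0537). Of 8 genes of glucose formation, which runs against glycolysis, 3 fell and 1 rose, with a median of -1.68. Proximal tubule markers, of which 6 of 10 were called lower, were lower in the knockouts too, and their part in the values of these lists was not tested.

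Pck1, the enzyme that withdraws oxaloacetate toward glucose, fell from 2587 ± 423 to 564 ± 166 CPM (means ± SD, n = 3), with a fold change on the log2 scale of -2.20 ± 0.33 (SE, edgeR's adjusted p = 0.0277). Its mitochondrial relative Pck2 rose from 28.2 ± 4.56 to 52.9 ± 11.4 CPM (log2 fold change 0.91 ± 0.20 SE, edgeR's adjusted p = 0.0345), and Pcx (-1.83) and Slc37a4 (-1.61) fell. Of 17 genes of lactate and pyruvate handling, 6 fell and 0 rose, with a median of -0.93, beside the 6.64% lower and 10.6% higher among all genes; the part of proximal tubule cells was not tested here either. Without knockout 1, 11 genes of this list, 5 of glucose formation and 4 glucose transporters were called lower (16.4% of all genes), and without any other single library, with the replicate block or with the covariate 0 were. They included Pdp2 (-1.43) and Pdk2 (-1.34), which switch pyruvate dehydrogenase on and off, Mpc1 (-1.39), which carries pyruvate into mitochondria, and Dld (-1.12), a subunit of the dehydrogenase. The lactate exporter Slc16a3, named after its values were seen, was above all controls in all knockouts but was not called (log2 fold change 1.81 ± 0.50 SE, edgeR's adjusted p = 0.0508).

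Of 18 HIF targets outside glycolysis, 4 rose (10.6% of all genes) and 2 fell (6.64%), with a median of 0.22, so that called genes went in both directions. Those called included Cdkn1a (a log2 fold change of 3.12), an inhibitor of the cell cycle, Edn1 (2.70), encoding endothelin, and Car9 (-1.79), a carbonic anhydrase. Without knockout 1 the counts were 4 higher (18% of all genes) and 5 lower (16.4%). Without knockout 2 they were 1 higher (0.435% of all genes) and 0 lower (0.0389%). They were 0 and 0 without control 1, 2 or 3 or knockout 3, with the replicate block and with the Xist-to-Y covariate. The plot of list sums shows the members beside these lists and the cell type markers.

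**Figure D4:**
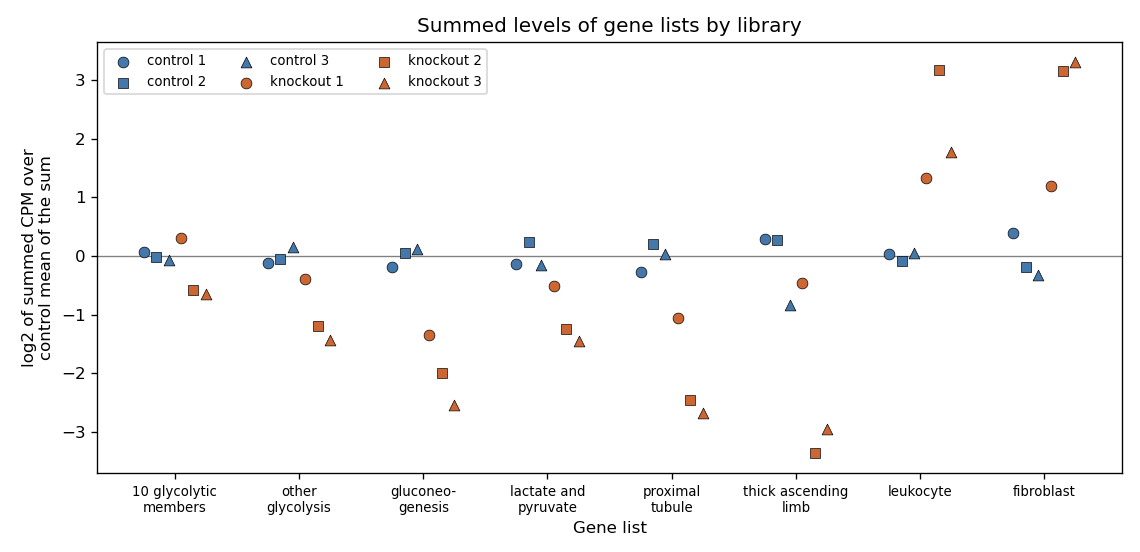
Summed CPM of each gene list in each library, as log2 over the control mean of the sum, with controls in blue and TfR1KO;KspCre libraries in orange. The 10 glycolytic members straddle the controls, with knockout 1 above and knockouts 2 and 3 below, whereas the gluconeogenesis, lactate and pyruvate, and proximal tubule sums lie below the controls in all 3 knockouts and the leukocyte and fibroblast sums above.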

How the data were processed

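Counts of poly-A RNA sequencing reads per gene, with no normalization, were deposited by the authors in 1 table for each group of 3 whole kidneys. Bases had been called with CASAVA 1.8.2 and reads trimmed with Trimmomatic, per the submitters' processing notes and the study's methods, after which the authors aligned them to mm9 with TopHat2 2.0.11, kept uniquely mapped reads and counted them with HTSeq. The annotation and the strand setting of counting are not given in the sources used here, so overlapping genes are uncertain, and unique mapping lowers the counts of genes with near-identical copies.

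The sample titles gave group and replicate number. Totals were 11501053 to 21001341 counts. The 2 tables were joined by symbol (24422 genes, of which 4664 were at 0 throughout), filtered by filterByExpr (minimum count 10, minimum total 15), scaled by TMM and fitted with edgeR 4.0.16 in R 4.3.3, using the quasi-likelihood test with Benjamini-Hochberg adjustment over 15171 genes and a threshold of 0.05. The test was checked on simulated counts of 15171 genes, in which 71 of 95 genes changed 4-fold, 93 of 98 changed 8-fold and 7 of 14854 unchanged genes were called. Each simulated gene had the same spread in both groups. The genes named were the 10 members, the other genes of glycolysis, up to 4 genes of each further list (called genes first, by adjusted p) and the check genes, except that some of them are not reported here. The members and lists were chosen with earlier results of these data known.

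Isozyme ratios used counts within a library and an exact permutation test. Transcript lengths, coordinates and the search for repeated 100-base stretches used the mm9 genome with GENCODE M1 (longest transcript of each gene), and promoter windows came from RefSeq, GRCm38.p6. Replicates of a group differed by more than sampling noise in every pair (chi-square per degree of freedom 55.1 to 133.6). Alternatives were other scalings and filters, DESeq2 1.42.0, limma-voom (limma 3.58.1), a replicate block, a covariate for the ratio of Xist to Y-linked genes, and leaving out each library.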

Additional observations from a re-analysis of the deposited data

How the results depend on the processing

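Without 1 library at a time, the members called numbered 0 to 3 (3 without knockout 1, 0 without each of the others), the other glycolysis genes called 0 to 11 (11 without knockout 1, 0 without each of the others), and the members' median log2 fold change -0.47 to 0.15. DESeq2's Wald test called 2 members, and 4861 genes in all against 2612. Limma-voom called 3 other glycolysis genes. The Xist-to-Y covariate left 0 members, 0 other glycolysis genes and 0 of all 15171 genes called, with 4221 of all genes at an unadjusted p under 0.05. This covariate was -6.23 in control 2 and 10.8 to 12.3 in the other libraries, so that it mainly set control 2 apart. With the replicate block, likewise, 0 members and 0 other glycolysis genes were called (Eno2 2.27, edgeR's adjusted p = 0.0713; 5432 genes at an unadjusted p under 0.05), with 2612 genes called in all without it and 0 with it. Same-numbered libraries had correlations of deviations of -0.13, 0.01 and 0.21, and 2 of 6 libraries correlated best with their own number, so the numbers were not read as pairs.

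Among the members, the log2 fold changes that turned in sign belonged to 4 genes that were not called. The signs of the other glycolysis genes are not followed here. Aldoa was at 0.11 and Ldha at 0.074 with library size alone, which moved the median of all genes from 0.02 to 0.29. Pfkl was at -0.050 with limma-voom, -0.032 with the replicate block and -0.021 with the covariate. Without 1 library, Aldoa ranged from -0.48 to 0.035, Hk1 from -0.63 to 0.040, Ldha from -0.56 to 0.0025 and Pfkl from -0.45 to 0.28. The cause was not tested. The other 6 members kept their direction under all 16 alternatives, and the 5 isozyme ratios under theirs. With 3 libraries a group, 71 of 95 simulated 4-fold changes were called, and smaller changes may be missed. The simulation changed few genes and gave both groups the same spread. Here 17.2% of genes were called, and members such as Pgk1 varied more in the knockouts. The simulated rate therefore does not describe this comparison. Repeated sequence limits Pgk1, Pgam1 and Gapdh.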

Other observations

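Of 10 genes of the pentose phosphate and serine branches, 0 were called by edgeR (17.2% of all genes), 1 had an unadjusted p under 0.05 (5862 of all 15171 genes), DESeq2 called 0 (28.5% of all genes), and the median log2 fold change was -0.12. G6pdx, which commits glucose phosphate to the pentose route, was measured at 45.1 ± 3.04 CPM in control and 62.5 ± 14.8 CPM in knockout kidneys (means ± SD, n = 3), with a log2 fold change of 0.47 ± 0.19 (SE, edgeR's adjusted p = 0.11). The sum over the 10 genes was 949 to 1083 CPM in controls and 890.0 to 1011 CPM in knockouts.

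Of 6 isozymes known from testis, 1 was tested, Gapdhs, which held 46 to 125 counts, at 4.77 ± 0.78 and 4.46 ± 1.46 CPM (log2 fold change -0.095), and Pgk2, Ldhc, Aldoart1 and Aldoart2 held 0 to 2 counts in every library and Ldhal6b 2 to 16.

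The main enolase gene Eno1 held 3, 1 and 0 counts in controls and 6, 2 and 3 in knockouts, whereas the row Eno1b held 678 to 6409. Of the 100-base stretches of Eno1, 59.0% occur elsewhere in mm9. The log2 ratio of Eno2 over Eno1b, added after seeing the data, was -6.62, -6.66 and -5.09 in controls and -5.10, -1.90 and -1.67 in knockouts, and the groups overlapped (exact permutation test, two-sided, p = 0.2).

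Among cell type markers, edgeR called lower (6.64% of all genes) 6 of 10 genes of the proximal tubule, 1 of 5 of the distal convoluted tubule, 0 of 7 of the thick ascending limb and 0 of 8 of the collecting duct. It called higher (10.6% of all genes) 10 of 12 leukocyte, 5 of 8 fibroblast, 5 of 6 injured tubule, 4 of 7 cycling cell and 1 of 5 podocyte markers. Of endothelial markers 0 of 5 were called, of neuron markers 0 of the 2 tested, of red cell markers 0 of the 2 tested, and of muscle markers the 1 tested was higher.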
